A study of Mus musculus with 2 samples.

Results

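Interferon-stimulated genes are the antiviral and antigen-related genes that cells switch on when an interferon binds its receptor. The set described here held 36 gene symbols, listed by name, and 35 of them matched 1 row each among the 31053 genes counted. Mx2 was not analysed here. The 35 members were followed in mammary luminal cells of 2 libraries and in 3 classes of cells, to see whether their difference between the libraries was spread over the cells or lay in a few cells with high levels.

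Both libraries came from FVB/NJ mice at 3.5 months of age that carried the Sox9-GFP allele, and from sorted luminal cells of the mammary gland profiled with a droplet-based 3′ single-cell kit. The WT library had the Sox9-GFP genotype alone. The C3-TAg library had the Sox9-GFP;C3-TAg genotype, whose transgene places T antigens of simian virus under the rat prostatic C3 steroid-binding promoter, and such mice form tumours of the mammary gland. Since a genotype had 1 library, with the number of mice and the sort gate not stated, no difference between the libraries has a replicate check and no test was made. All intervals below are 95% intervals for counting error only.

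Type I and type III interferons act through the kinases Jak1 and Tyk2 on a complex that holds Stat2 and Irf9 and binds a repeated GAAA-type element in the promoters of its targets. Interferon gamma acts through Jak1 and Jak2, and its targets carry a shorter palindrome. The targets then sense viral nucleic acid, tag proteins with Isg15, block translation of viral RNA, degrade RNA and restrain entry or release of viruses, and a few of them, such as Usp18, dampen the receptor again. Epithelial cells can hold a low level of this programme without infection.

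Hormone-sensing cells were those with at least 5 UMIs (unique molecular identifiers, 1 per captured transcript) of Areg, Pgr, Esr1 and Cited1 together per 10000 UMIs. The other cells were split by their share of UMIs from 4 casein genes, at least 0.5% (high casein) or below (low casein). After filtering, 7011 WT and 7894 C3-TAg cells were kept, with medians of 10302 and 8682.5 UMIs per cell. Hormone-sensing cells numbered 2714 in WT and 2023 in C3-TAg, high-casein cells 3745 and 2489, and low-casein cells 552 and 3382. The summed UMIs behind the 6 groups ran from 4589205 (low casein, WT) to 46798273 (high casein, WT).

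Among markers outside the rule, Prlr and Foxa1 fitted the hormone-sensing name, while Aldh1a3 in C3-TAg went against it. The prolactin receptor Prlr was at 2502 CPM (UMIs per 1000000 UMIs of the group) in WT and 1506 CPM in C3-TAg hormone-sensing cells, against 71.7 and 68.7 CPM in high-casein cells. The pioneer factor Foxa1 was at 109.6 and 95.8 CPM there, against 2.95 and 1.85 CPM in high-casein cells. In low-casein cells Prlr was at 298.3 and 67.2 CPM and Foxa1 at 19.8 and 3.62 CPM. Of the receptor-negative luminal markers, Elf5, Kit and Cd14 were lower in hormone-sensing than in high-casein cells of both libraries. Aldh1a3 was at 10.2 and 105.75 CPM in hormone-sensing cells, against 102.0 and 47.0 CPM in high-casein cells. Ly6a was at 993.0 and 289.7 CPM in hormone-sensing cells. A Pgr or Esr1 UMI was counted in 80.3% of hormone-sensing cells in the WT library and 59.3% in the C3-TAg library, and Krt14, a basal keratin, was at 9.58 and 108.8 CPM. Their part in the results was not tested. In the low-casein class 7 basal markers summed to 243.0 CPM for WT and 514.0 CPM for C3-TAg, of which Krt14 gave 135.3 and 412.4 CPM and Tagln 51.0 and 81.2 CPM, while the basal keratin Krt5 went the other way (45.5 and 0.84 CPM). The immune markers Ptprc, Tyrobp, Fcer1g, Laptm5, Cd3e and Cd79a summed to 0.60 to 3.27 CPM over the 6 groups, and of them Ptprc stood at 0 in 4 groups. Cells with mitotic transcripts differed strongly, as 20 G2M genes summed to 16.3 and 515.2 CPM in hormone-sensing cells, 15.1 and 1038 CPM in high-casein cells, and 31.6 and 1939 CPM in low-casein cells (WT and C3-TAg).

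Some members share a stretch of letters in their promoters. The letters GAAANNGAAA, read on either strand within 250 bases upstream of a RefSeq start (GRCm38.p6), were found in 12 of the 27 members with a promoter entry (44.4%), against 3.46% of 27025 genes and 2.98% of 32851 promoters. The shorter palindrome TTCNNNGAA was found in 7 of 27 members (25.9%), against 8.13% of genes. The stretches of 7 members from 5 roles are given as examples. No comparison of cells or classes used the matches. Each line is written 5′ to 3′ on the strand of its gene, with the match in capitals (GAAANNGAAA, or TTTCNNTTTC where it lies on the opposite strand).
Isg15, chr4:156200851-156200920, minus strand: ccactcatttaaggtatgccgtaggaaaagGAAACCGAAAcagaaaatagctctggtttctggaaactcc
Ifit1, chr19:34640774-34640843, plus strand: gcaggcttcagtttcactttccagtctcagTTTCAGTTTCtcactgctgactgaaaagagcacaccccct
Ifit3, chr19:34583377-34583446, plus strand: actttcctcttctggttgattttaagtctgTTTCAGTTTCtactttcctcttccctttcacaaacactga
Oas3, chr5:120777695-120777764, minus strand: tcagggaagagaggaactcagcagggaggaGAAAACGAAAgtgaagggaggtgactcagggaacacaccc
Bst2, chr8:71537563-71537632, minus strand: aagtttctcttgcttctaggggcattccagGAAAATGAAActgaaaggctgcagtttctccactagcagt
Rsad2, chr12:26456533-26456602, minus strand: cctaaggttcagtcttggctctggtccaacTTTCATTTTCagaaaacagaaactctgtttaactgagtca
Gbp7, chr3:142530253-142530322, plus strand: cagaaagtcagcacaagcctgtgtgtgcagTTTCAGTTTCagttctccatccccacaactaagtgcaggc
In Isg15 the capitals mark the middle of 3 overlapping matches, in Bst2 they mark the upstream one of 2, and Ifit1 and Ifit3 have 1 more match upstream. Ifit3b, a close copy of Ifit3 on the same chromosome, carries the same 70 letters as Ifit3, and UMIs of this pair may be split between them, so their separate levels are uncertain. A match is a stretch of letters and not a measured binding site. The table had no promoter entry for Oas2, Usp18, Ifi27l2a, Rtp4, Zbp1, Dhx58, Mx1, Mx2 and Parp14.

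Summed over the 35 members, hormone-sensing cells stood at 1431 CPM (1417 to 1446) in WT and 1662 CPM (1642 to 1681) in C3-TAg, 1.16 times as high (1.14 to 1.18). High-casein cells stood at 394.2 CPM (388.6 to 399.98) and 537.2 CPM (528.8 to 545.8), 1.36 times as high (1.33 to 1.39). Low-casein cells stood at 562.6 CPM (541.1 to 584.8) and 1012 CPM (1001 to 1023), 1.80 times as high (1.73 to 1.87). The sum leans on Ifitm3, a membrane protein that restrains viral entry, which gave 55.8% of the member UMIs in WT and 41.8% in C3-TAg hormone-sensing cells, and between 17.2 and 32.3% in the other 4 groups. The counts over members that follow weigh each gene alike.

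Within hormone-sensing cells, 24 of the 33 members measured (at least 20 UMIs over both libraries) stood 1.5-fold or more above WT in C3-TAg and none was 1.5-fold lower, while 22.9% of 12747 genes were higher and 9% lower by that fold. The median log2 ratio of the members was 1.11, beside 0.15 for all genes. In high-casein cells 14 of 33 were higher and 3 lower, against 31.2% and 10.5% of 12899 genes, and the member median of 0.46 stood beside 0.32 for all genes. In low-casein cells 22 of 35 were higher and none lower, against 38.3% and 13.2% of 12681 genes, with a member median of 1.12 beside 0.38 for all genes.

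In all 3 classes 12 members were higher, namely Ifit2, Ifit3, Oasl2, Oas1a, Oas2, Usp18, Ifi27l2a, Gbp2, Gbp3, Gbp7, Xaf1 and Eif2ak2. Some of these calls rest on few UMIs. Ifit2 had 22 UMIs in each library in high-casein cells, and its log2 interval there was -0.21 to 1.63. Ifit3, Oas1a and Oas2 had 1, 2 and 2 WT UMIs in low-casein cells. Ifit3, Oas2 and Usp18 had 5, 4 and 8 WT UMIs in high-casein cells. A group of 7 was higher in hormone-sensing and low-casein cells and within 1.5-fold in high-casein cells (Isg15, Ifit1, Ifi44, Oasl1, Irf7, Rsad2 and Rtp4). Within 1.5-fold in every class were 6 members, Irf1, Irf9, Ifitm3, Ddx58, Parp14 and Ifi35. Stat2, Dhx58 and Trim25 were higher in hormone-sensing cells alone by this threshold, and Bst2 was higher in both of the other classes. Scaling by a trimmed mean of log ratios (TMM), computed over all genes within each class, lowered every log2 ratio by 0.18, 0.34 and 0.26 in the 3 classes in turn, and relative to that shift 20, 11 and 22 members were higher and 1, 4 and 3 lower, with medians of 0.93, 0.12 and 0.86 and with 17.1, 17.4 and 26.5% of all genes higher and 14.1, 17.6 and 18.9% lower. At a threshold of 2-fold and no scaling, 18, 11 and 21 members were higher and none lower, against 12.7, 15.4 and 21.6% of genes higher and 4.12, 5.95 and 7.78% lower.

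**Figure D1:**
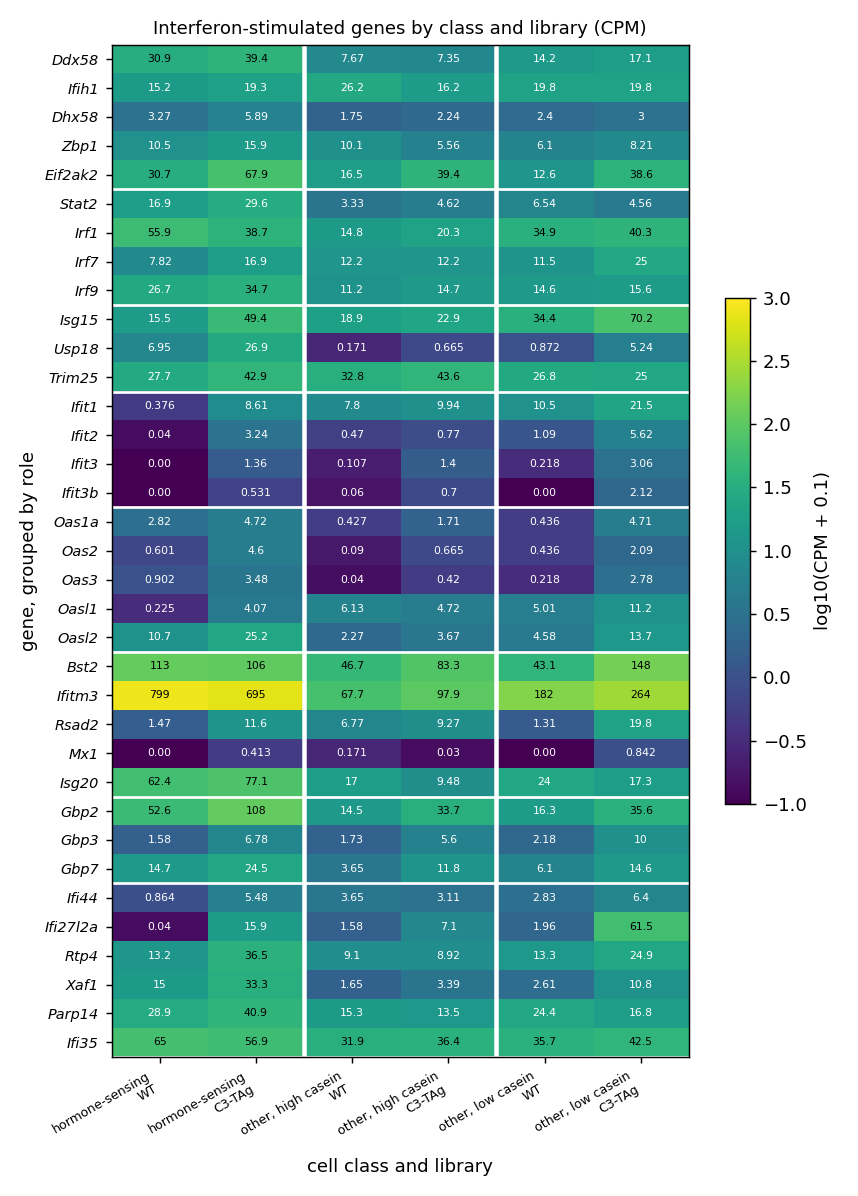
Level of each of the 35 members (rows, grouped by role) in the 3 cell classes of both libraries (columns), as CPM printed in the cells and as log10(CPM + 0.1) in colour. Ifitm3 is the brightest row, at 799.1 CPM in WT hormone-sensing cells, and Ifi27l2a goes from dark to light between WT and C3-TAg in hormone-sensing and low-casein cells.

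Among the sensors of viral nucleic acid, 3 of 5 were higher in hormone-sensing cells (Eif2ak2, Zbp1 and Dhx58), and Eif2ak2 alone was higher in each class. Eif2ak2 encodes the kinase PKR, which stops translation when it binds double-stranded RNA. Eif2ak2 was at 30.7 CPM for WT and 67.9 CPM for C3-TAg hormone-sensing cells, at 16.5 and 39.4 CPM in high-casein cells, and at 12.6 and 38.6 CPM in low-casein cells. The log2 ratios were 1.15 (1.01 to 1.28), 1.26 (1.13 to 1.39) and 1.61 (1.23 to 2.02), so the highest WT group stayed below the lowest C3-TAg group. Ddx58, the RNA helicase RIG-I, was at 30.9 and 39.4 CPM in hormone-sensing cells, 7.67 and 7.35 CPM in high-casein cells, and 14.2 and 17.1 CPM in low-casein cells. These differences were all within 1.5-fold.

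Ifih1, the helicase MDA5 for long double-stranded RNA, was 1.61-fold lower in C3-TAg high-casein cells, at 26.2 CPM for WT and 16.2 CPM for C3-TAg. Elsewhere its levels lay close together, at 15.2 and 19.3 CPM in hormone-sensing cells and 19.8 CPM in both low-casein groups. Zbp1, a sensor of Z-form nucleic acid that can start cell death, went opposite ways. It was at 10.49 CPM for WT and 15.9 CPM for C3-TAg hormone-sensing cells, but at 10.1 and 5.56 CPM in high-casein cells, and at 6.10 and 8.21 CPM in low-casein cells. The log2 ratios were 0.60 (0.35 to 0.84), -0.86 (-1.13 to -0.60) and 0.43 (-0.14 to 1.04). Among cells with at most 5% mitochondrial UMIs the hormone-sensing ratio of Zbp1 was -0.19. Dhx58, the helicase LGP2 that tunes the other helicases, stayed under 6 CPM in every group.

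The transcription factors were split. Irf7, the factor that amplifies type I interferon production, was at 7.82 CPM for WT and 16.9 CPM for C3-TAg hormone-sensing cells and at 11.5 and 24.99 CPM in low-casein cells, and stood at 12.2 CPM in both high-casein groups. Stat2 was at 16.9 and 29.6 CPM in hormone-sensing cells, with 3.33 and 4.62 CPM in high-casein cells and 6.54 and 4.56 CPM in low-casein cells, so its direction in the last class was the opposite, within 1.5-fold. Irf9, its DNA-binding partner, was at 26.7 and 34.7 CPM, 11.2 and 14.7 CPM, and 14.6 and 15.6 CPM in the 3 classes. Irf1, which also responds to interferon gamma and to cell stress, was lower in C3-TAg hormone-sensing cells (55.9 and 38.7 CPM) and higher in the others (14.8 and 20.3 CPM with high casein, 34.9 and 40.3 CPM with low casein), in each class within 1.5-fold. Of these 4 factors, none thus passed 1.5-fold in high-casein cells.

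Isg15, the ubiquitin-like protein that is joined to other proteins, was 3.18-fold higher in C3-TAg hormone-sensing cells, at 15.5 CPM (14.1 to 17.1) in WT and 49.4 CPM (46.1 to 52.9) in C3-TAg. It was 2.04-fold higher in low-casein cells, at 34.4 CPM (29.3 to 40.2) and 70.2 CPM (67.3 to 73.1). In high-casein cells its levels of 18.9 and 22.9 CPM were within 1.5-fold. Without cells that had 2 or more G2M UMIs the low-casein log2 ratio of Isg15 went from 1.03 to 0.25 and the high-casein ratio from 0.28 to -0.85, while the hormone-sensing ratio went from 1.67 to 1.47.

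Usp18, which removes Isg15 and blocks the type I receptor, was carried mainly by hormone-sensing cells. It was at 6.95 CPM for WT and 26.9 CPM for C3-TAg there, at 0.171 and 0.665 CPM in high-casein cells, and at 0.872 and 5.24 CPM in low-casein cells. The ratio was 3.87-fold or more in each class, with log2 values of 1.95 (1.70 to 2.21), 1.96 (0.70 to 3.36) and 2.59 (1.21 to 4.48). Trim25, a ligase that joins Isg15 and activates RIG-I, was 1.55-fold higher in hormone-sensing cells, at 27.7 and 42.9 CPM. It stood at 32.8 and 43.6 CPM with high casein and at 26.8 and 24.96 CPM with low casein.

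The IFIT genes, whose proteins grip foreign RNA ends, were nearly silent in WT hormone-sensing cells. Ifit1 had 10 UMIs there (0.376 CPM, 0.180 to 0.691) and 146 UMIs in C3-TAg (8.61 CPM, 7.27 to 10.1), a log2 ratio of 4.52 (3.60 to 5.61). That size depends on the class boundary, since with the hormone threshold at 3 UMIs per 10000 the log2 ratio was 1.03. In high-casein cells Ifit1 was at 7.80 and 9.94 CPM, within 1.5-fold, and in low-casein cells at 10.46 and 21.5 CPM, a log2 ratio of 1.04 that became 0.03 when each cell had equal weight. Ifit2 had 1 UMI in WT and 55 in C3-TAg hormone-sensing cells, a log2 ratio of 6.43 with a wide interval (3.89 to 11.8). Ifit3 had no UMI there in WT and 23 in C3-TAg, a ratio of at least 12.03-fold when WT is set to its floor of 3 UMIs. Ifit3b was below the 20 UMIs needed in hormone-sensing cells and was higher in both other classes.

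Among the oligoadenylate synthetases, which make the signal for RNase L, and their relatives, all 5 genes were higher in hormone-sensing and in low-casein cells. Oasl2 was at 10.7 CPM for WT and 25.2 CPM for C3-TAg hormone-sensing cells, at 2.27 and 3.67 CPM with high casein, and at 4.58 and 13.7 CPM with low casein. Oasl1, a repressor of Irf7 translation, was at 0.225 and 4.07 CPM in hormone-sensing cells and at 5.01 and 11.2 CPM with low casein, but at 6.13 and 4.72 CPM with high casein. With called doublets kept, the hormone-sensing log2 ratio of Oasl1 went from 4.17 to 2.22, and with the hormone threshold at 3 UMIs per 10000 it was 1.78. The low-expressed Oas1a, Oas2 and Oas3 stayed between 0.0427 and 4.72 CPM, and their log2 ratios ran from 0.74 (Oas1a, hormone-sensing cells) to 3.67 (Oas3, low casein). Oas3 had 14 UMIs in high-casein cells and was not counted there.

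**Figure D2:**
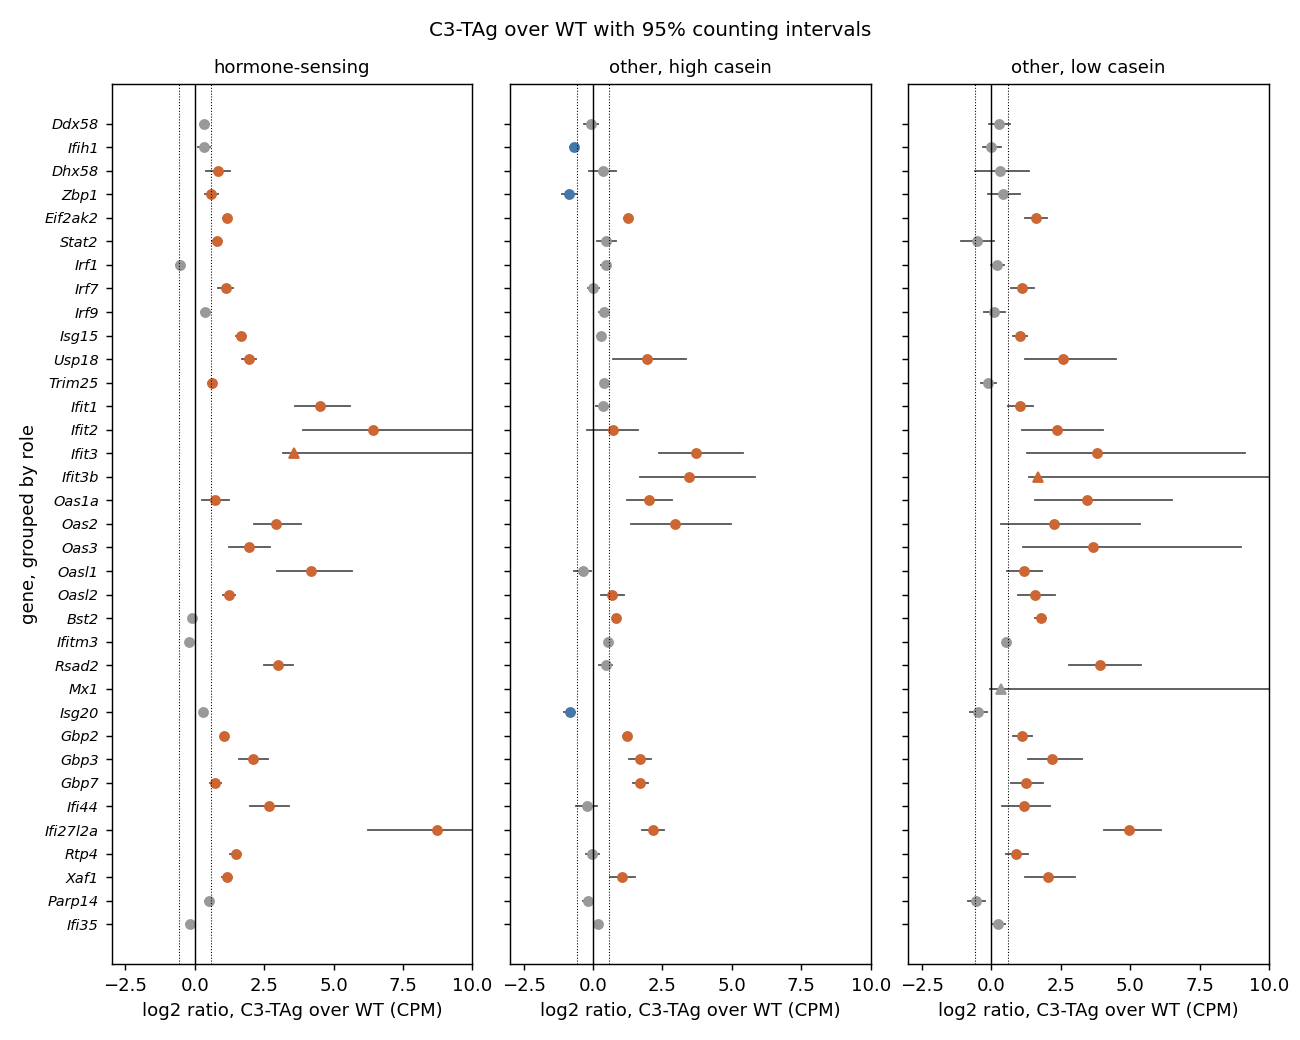
Log2 ratio of C3-TAg over WT for each measured member (rows, grouped by role) in the 3 classes, with bars for the 95% counting interval; orange is at least 1.5-fold higher, blue at least 1.5-fold lower, grey in between, and dotted lines mark 1.5-fold. Triangles are lower bounds with no WT UMI, bars that pass 10 are clipped, and the orange points number 24, 14 and 22 from left to right.

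The effectors at the cell membrane, Ifitm3 and Bst2, differed from each other. Ifitm3 was at 799.1 CPM for WT and 694.5 CPM for C3-TAg hormone-sensing cells, a log2 ratio of -0.20 (-0.24 to -0.17), at 67.7 and 97.9 CPM with high casein, and at 181.5 and 264.2 CPM with low casein. All 3 differences were within 1.5-fold, and with the hormone threshold at 10 UMIs per 10000 the low-casein log2 ratio of 0.54 became -0.19. Bst2, the tether that holds budding viruses to the cell, was at 112.9 and 106.5 CPM in hormone-sensing cells. With high casein it was at 46.7 and 83.3 CPM, and with low casein at 43.1 CPM (37.3 to 49.6) and 147.5 CPM (143.3 to 151.8), which is 3.42-fold higher.

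Rsad2, the enzyme viperin that makes a chain-ending nucleotide, was at 1.47 CPM for WT and 11.6 CPM for C3-TAg hormone-sensing cells. In low-casein cells it was at 1.31 CPM (0.480 to 2.85, from 6 UMIs) and 19.8 CPM (18.3 to 21.4), and in high-casein cells at 6.77 and 9.27 CPM. The log2 ratio in hormone-sensing cells of 2.99 became 1.48 without cells that had 2 or more G2M UMIs. Isg20, an RNA exonuclease, was at 62.4 and 77.1 CPM in hormone-sensing cells, and was 1.79-fold lower in C3-TAg high-casein cells (17.0 and 9.48 CPM). With low casein it was at 24.0 and 17.3 CPM. Mx1, a dynamin-like GTPase that is defective in many laboratory strains, had 0 to 27 UMIs in the 6 groups.

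The guanylate-binding proteins, which attack the membranes around intracellular microbes, were higher in every class. Gbp2 was at 52.6 CPM for WT and 107.8 CPM for C3-TAg hormone-sensing cells, at 14.5 and 33.7 CPM with high casein, and at 16.3 and 35.6 CPM with low casein. Its fold differences of 2.05, 2.32 and 2.18 lay close together. Gbp7 was at 14.7 and 24.5 CPM, 3.65 and 11.8 CPM, and 6.10 and 14.6 CPM in the 3 classes. Gbp3 was at 1.58 and 6.78 CPM, 1.73 and 5.60 CPM, and 2.18 and 10.0 CPM. With cells of at most 5% mitochondrial UMIs the hormone-sensing log2 ratio of Gbp2 was 0.54 in place of 1.04, just under the threshold.

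Ifi27l2a, a mitochondrial membrane protein, had the highest ratio of all members in hormone-sensing and low-casein cells. A single UMI was found in WT hormone-sensing cells and 270 in C3-TAg (15.9 CPM, 14.1 to 17.9), a log2 ratio of 8.73 (6.24 to 14.0) that went down to 6.78 with at most 5% mitochondrial UMIs. Within C3-TAg hormone-sensing cells, Ifi27l2a was at 70.9 CPM in those with 2 or more G2M UMIs and at 1.01 CPM in the others. In low-casein cells it was at 1.96 CPM (0.897 to 3.72) and 61.5 CPM (58.8 to 64.3), and in high-casein cells at 1.58 and 7.10 CPM, with log2 ratios of 4.97 (4.04 to 6.10) and 2.17 (1.78 to 2.57). All 3 classes thus differed by more than counting error.

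Xaf1, a binding partner of the apoptosis inhibitor XIAP, was at 15.0 and 33.3 CPM in hormone-sensing cells, at 1.65 and 3.39 CPM with high casein, and at 2.61 and 10.8 CPM with low casein. Rtp4, which can lower the interferon response, was at 13.2 and 36.5 CPM, 9.10 and 8.92 CPM, and 13.3 and 24.9 CPM. Ifi44 was at 0.864 and 5.48 CPM in hormone-sensing cells, with 3.65 and 3.11 CPM and 2.83 and 6.40 CPM in the others. These genes repeat the pattern of Isg15 in part, with the smallest or an opposite difference in high-casein cells. Parp14, which adds ADP-ribose to proteins, was at 28.9 and 40.9 CPM, 15.3 and 13.5 CPM, and 24.4 and 16.8 CPM, and Ifi35 at 65.0 and 56.9 CPM, 31.9 and 36.4 CPM, and 35.7 and 42.5 CPM.

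Between classes of the same library, hormone-sensing cells exceeded the others by 1.5-fold for most members, except against low-casein cells of C3-TAg. Against high-casein cells, 19 of 32 members were above by 1.5-fold and 8 below in WT (39.2% and 20% of genes), and 24 of 34 were higher and none lower in C3-TAg (28.6% and 17.8% of genes). Against low-casein cells, 17 of 29 members were higher and 4 lower in WT (32.3% and 21.6% of genes), and 16 of 35 were higher and 8 lower in C3-TAg (18.5% and 29.2% of genes). Low-casein cells exceeded high-casein cells for 10 of 29 members in WT, with 2 lower (24.2% and 8.64% of genes), and for 24 of 35 in C3-TAg, with 1 lower (30.4% and 9.16% of genes). The median log2 ratio of low over high casein was 0.38 in WT and 1.10 in C3-TAg. Isg15, Ifit1, Oasl1 and Rsad2 had higher CPM in high-casein than in hormone-sensing cells of WT, and in C3-TAg the same order held for Ifit1 (9.94 and 8.61 CPM) and Oasl1 (4.72 and 4.07 CPM), both within 1.5-fold.

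Other genes of the pathway, 92 listed by name with 88 matched, differed less as a set. Of those measured, 32 of 77 stood 1.5-fold or more above WT and 4 below in hormone-sensing cells, 25 of 73 higher and 9 lower in high-casein cells, and 32 of 76 higher and 12 lower in low-casein cells. These shares of higher genes, 41.6, 34.2 and 42.1%, stand beside 22.9, 31.2 and 38.3% of all genes, so with high or low casein they were near the background, and the medians of 0.44, 0.32 and 0.43 stand beside 0.15, 0.32 and 0.38. The transcripts of the ligands Ifnb1, Ifng, Ifnl2, Ifnl3 and Ifna4 had 0 or 1 UMI in every group, while Ifnk, a keratinocyte interferon, had 2 and 3, 19 and 11, and 1 and 9 UMIs in the 3 classes. Other interferon genes were not looked at. The receptor chains Ifnar1, Ifnar2, Ifngr1, Ifngr2, Ifnlr1 and Il10rb stayed below 1.5-fold higher in each class. Ifngr2 was 2.06-fold lower with high casein (55.7 and 27.0 CPM) and 2.15-fold lower with low casein (83.7 and 39.0 CPM). Ifnar2 was lower with high casein by just over 1.5-fold (70.8 and 45.8 CPM).

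At the upper end of that list stood chemokines and a DNA sensor. The T-cell chemokine Cxcl9, below 5 CPM in high-casein cells, had the highest ratio there (3 UMIs in WT, 0.0641 and 3.50 CPM, log2 ratio 5.77). Cxcl10, a chemokine that draws T cells, had 13 UMIs in WT and 607 in C3-TAg hormone-sensing cells (0.489 and 35.8 CPM) and was at 2.40 and 103.1 CPM in low-casein cells, with log2 ratios of 6.19 (5.41 to 7.11) and 5.43 (4.58 to 6.43). Mb21d1, which encodes the DNA sensor cGAS, was at 0.301 and 7.31 CPM in hormone-sensing cells, 0.556 and 8.75 CPM with high casein, and 1.53 and 27.1 CPM with low casein. Among listed genes with at least 5 CPM in 1 of the libraries it had the highest ratio in high-casein cells (log2 ratio 3.98, 3.39 to 4.62), followed by the immunity GTPase Igtp (3.29 and 14.7 CPM) and Herc6, an Isg15 ligase in mice (2.74 and 9.48 CPM), and Herc6 was also among the leading genes in low-casein cells (3.70 and 22.5 CPM). Ccl5, another T-cell chemokine, was higher in hormone-sensing cells (0.564 and 6.90 CPM) and lower in low-casein cells (152.3 and 27.6 CPM). In WT low-casein cells with at least 5000 UMIs, Ccl5 was at 0 CPM in the top 5% by member sum and at 87.0 CPM in the rest. The immune marker sum was also highest in that group (3.27 CPM). Whether a few immune cells carried Ccl5 there was not tested. At the lower end stood the antigen-processing genes Tap2 (230.8 and 101.1 CPM) and Psmb9 (137.1 and 77.6 CPM) and the factor Irf8 in hormone-sensing cells. In high-casein cells these were Samd9l, Ifngr2 and Shisa5, and in low-casein cells Ccl5, Ifi203 and Socs3, a feedback inhibitor of Jak kinases.

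To ask how the difference was spread over cells, every cell was thinned at random to 5000 UMIs, which left out 88 and 113 hormone-sensing, 91 and 62 high-casein and 90 and 387 low-casein cells (WT and C3-TAg). The mean number of member UMIs per cell was 7.30 in WT and 8.50 in C3-TAg hormone-sensing cells. Their medians were both 7, the 99th percentiles were 18 and 33, and the highest cells had 31 and 141 UMIs. The squared coefficient of variation beyond counting noise was 0.0982 in WT and 0.776 in C3-TAg. WT hormone-sensing cells were thus nearly even in their member sum, and C3-TAg cells were not.

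High-casein cells had a tail in both libraries. Their means were 2.02 and 2.65, the 99th percentiles 13 and 13.7 and the highest cells 100 and 306 UMIs. In low-casein cells the means were 2.82 and 4.85, the 99th percentiles 18 and 49 and the highest cells 53 and 176 UMIs, with an excess squared coefficient of variation of 1.61 and 3.65. In that class the C3-TAg tail was the longer at each of these marks, on 2995 cells against 462.

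**Figure D3:**
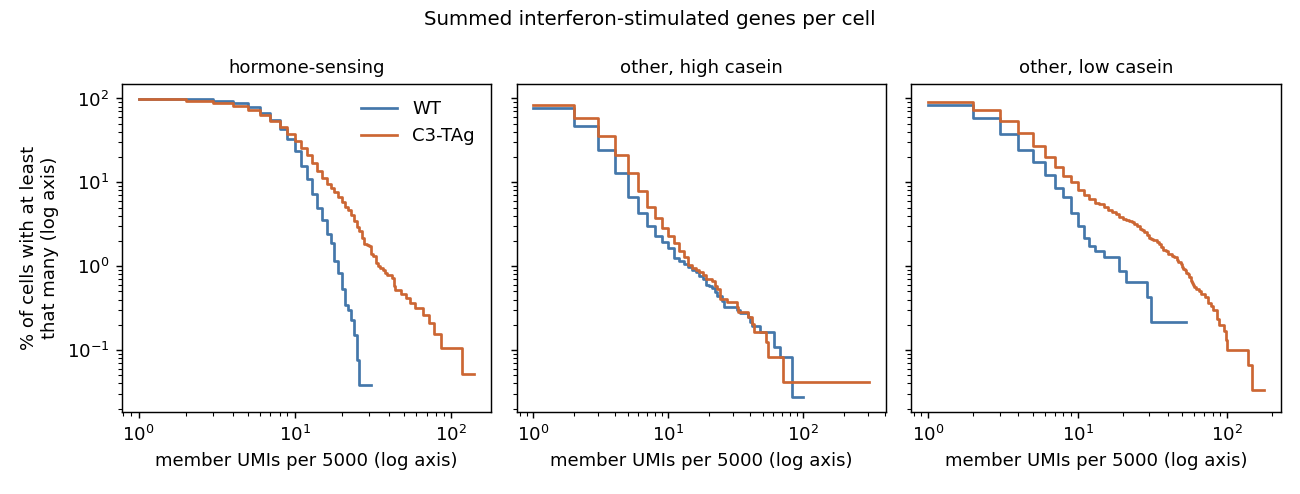
Share of cells (y, log axis, %) with at least a given number of member UMIs out of 5000 (x, log axis), for WT (blue) and C3-TAg (orange) in the 3 classes. The curves of hormone-sensing cells part from about 10 UMIs upward and end at 31 and 141, and those of high-casein cells lie close, with 99th percentiles of 13 and 13.7.

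The top 10% of cells in each library held 19.8% of member UMIs in WT and 29.2% in C3-TAg hormone-sensing cells, 40.3 and 39.1% in high-casein cells, and 38.04 and 48.3% in low-casein cells. Rank by rank, the hormone-sensing top 10% averaged 14.4 and 24.8 UMIs, the next 40% 8.90 and 10.1, and the lower 50% 4.60 and 3.96. So 86.7% of the summed difference lay in the top 10% of cells, 39.9% in the next 40%, and the lower 50% went the other way (-26.5%). In high-casein cells the top 10% gave 34.9%, the next 40% gave 41.7% and the lower 50% gave 23.1% of the difference. The top 10% share in this class leans on 1 C3-TAg cell with 306 member UMIs, where the mean over 2427 cells was 2.65. In low-casein cells these shares were 62.2, 25.2 and 12.2%. With the 3 highest members left out (Ifitm3, Bst2 and Gbp2 in hormone-sensing cells), the hormone-sensing shares were 55.4, 38.1 and 6.52%, so the lower 50% no longer went the other way.

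**Figure D4:**
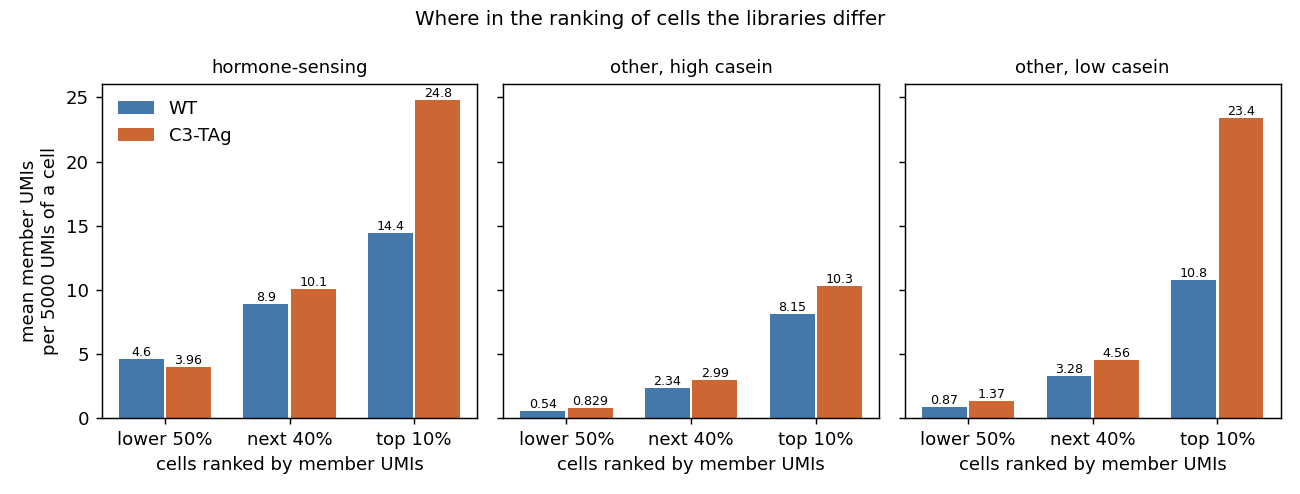
Mean member UMIs per 5000 UMIs of a cell (y) in the lower 50%, the next 40% and the top 10% of cells ranked by that number (x), for WT (blue bars) and C3-TAg (orange bars) in the 3 classes. The bars differ most in the top 10% of hormone-sensing cells (14.4 and 24.8) and of low-casein cells (10.8 and 23.4), and by less in high-casein cells (8.15 and 10.3 in the top 10%).

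Leaving the top 10% of cells out of both libraries took the log2 ratio of summed members from 0.22 to 0.04 in hormone-sensing cells, from 0.39 to 0.42 in high-casein cells and from 0.78 to 0.52 in low-casein cells. The hormone-sensing value depends on the most abundant members, since without Ifitm3, Bst2 and Gbp2 it was 0.44 with the top 10% left out. The same was done for each member with cells ranked by the other members, so that a gene did not choose its own cells. In hormone-sensing cells 19 of 29 members that could be followed were higher with all cells and 13 without the top 10% (20.3% and 20.4% of genes), and their median log2 ratio went from 0.86 to 0.50, with 1 lower in each setting (8.86% and 8.96% of genes). The 13 that were higher in both were Ifi44, Oasl2, Oas2, Oas3, Irf7, Usp18, Ifi27l2a, Rtp4, Gbp2, Gbp3, Xaf1, Trim25 and Eif2ak2. In high-casein cells the same 7 of 25 were higher in both settings (29.2% and 29.1% of genes) and 4 were lower in each (10.2% and 10.4%), the higher ones being Bst2, Ifi27l2a, Gbp2, Gbp3, Gbp7, Xaf1 and Eif2ak2. In low-casein cells 17 of 28 were higher with all cells and 10 without (38.9% and 40.2% of genes), 2 and 5 were lower (12.2% and 11.6%), and the median went from 0.84 to 0.17.

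Some members were held by few cells and others were spread over many. Rsad2 had 85.7% of its UMIs of C3-TAg hormone-sensing cells in the top 10% of cells, and its log2 ratio went from 2.92 to 0.22 without them. Ifit1 had 94.0% there, and Isg15 58.5%, with its log2 ratio going from 1.55 to 0.46. Eif2ak2 had 22.03%, and its ratio stood at 1.02 after 1.19. Gbp2 (30.1%, 1.20 to 0.88) and Usp18 (39.3%, 1.97 to 1.47) likewise kept most of their difference.

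In low-casein cells, 12 of 28 members had over 50% of their C3-TAg UMIs in the top 10% of cells. Isg15 had 75.6% there and went from a log2 ratio of 0.95 to -0.39. Ifi27l2a had 75.7%, and its ratio was 5.09 (3.72 to 6.97) with all cells and 5.05 (2.55 to 10.4) without them, from 4 and 1 WT UMIs. Ifit2 had 10.4%, but with 1 WT UMI its ratio is too imprecise to follow (3.57, 1.05 to 8.89, with all cells). Eif2ak2 had 20.7% and stood at 1.53 after 1.46. In high-casein cells Ifit1 and Rsad2 had 95.5 to 100% of their UMIs in the top 10% of cells of either library (Ifit1 96.3% in WT and 100% in C3-TAg, Rsad2 95.5 and 95.7%). In C3-TAg the highest cell for each gene held 89 of 131 Ifit1 UMIs and 96 of 115 Rsad2 UMIs, so their similar levels in the 2 libraries rest on very few cells. Without cells with 2 or more G2M UMIs their log2 ratios there were -1.69 and -0.21.

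**Figure D5:**
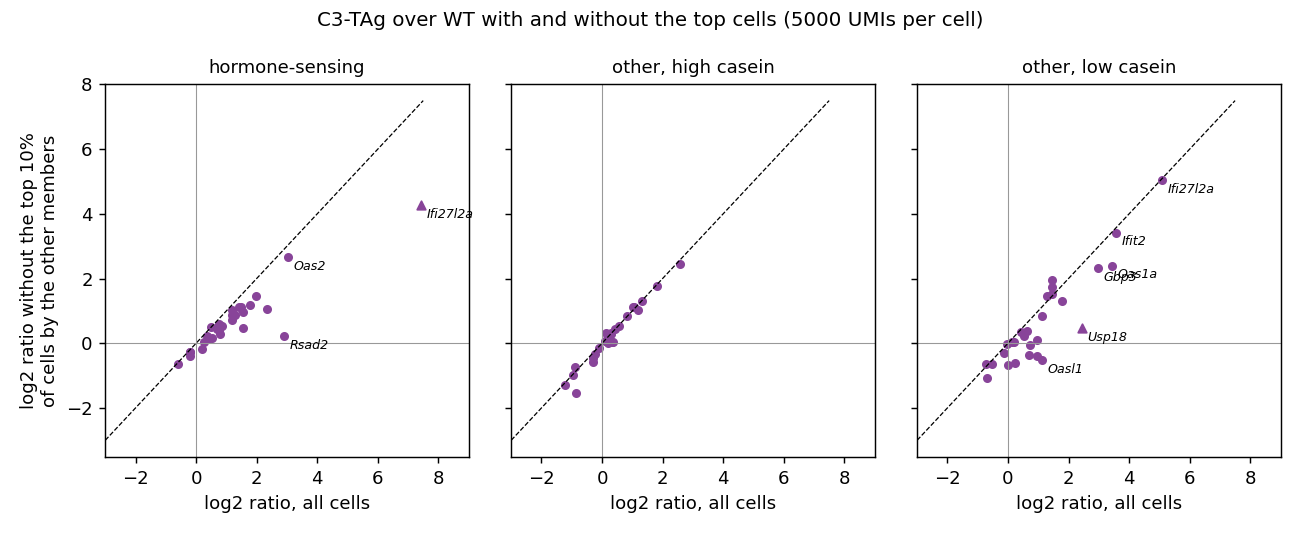
Log2 ratio of C3-TAg over WT for each followed member with all cells (x) and without the top 10% of cells by the other members (y), at 5000 UMIs per cell, in the 3 classes; the dashed line marks no change and triangles are lower bounds. Points of high-casein cells lie near the line, while Rsad2 in hormone-sensing cells (2.92 to 0.22) and Oasl1 in low-casein cells (1.11 to -0.53) lie far below it.

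Shares of cells with a UMI describe the same split. Eif2ak2 was seen in 13.7% of WT (361 of 2626) and 27.9% of C3-TAg (533 of 1910) hormone-sensing cells at 5000 UMIs, with 1.14 and 1.28 UMIs per positive cell (24.9 and 38.8% of cells unthinned). Rsad2 was seen in 0.343 and 0.942% of them, with 1.56 and 4.28 UMIs per positive cell (1.07 and 1.43% unthinned). Ifi27l2a was seen in 0.0381% of WT (0.000964 to 0.212%) and 1.73% of C3-TAg (1.19 to 2.42%) hormone-sensing cells, and in 0.649% (0.134 to 1.89%) and 7.55% (6.63 to 8.55%) of low-casein cells. Free RNA in droplets can add single UMIs to any cell, and no cell type known to lack these genes was at hand to measure it.

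A further count used members other than Ifitm3 and Bst2 and thresholds that were chosen after the data were seen. At least 20 such UMIs were found in 0 of 2626 WT hormone-sensing cells (a count of 0 allows up to 0.114%, taken as 3 counts of the total) and in 35 of 1910 C3-TAg cells (1.83%, 1.28 to 2.54%). In high-casein cells the shares were 14 of 3654 (0.383%) and 10 of 2427 (0.412%), and in low-casein cells 3 of 462 (0.649%, 0.134 to 1.89%) and 61 of 2995 (2.04%, 1.56 to 2.61%). Cells with such sums were thus present in both libraries outside the hormone-sensing class. At 10 or more UMIs, hormone-sensing cells gave 24 of 2626 (0.914%) and 176 of 1910 (9.21%), and the 147 such low-casein cells of C3-TAg (4.91%) held 43.7% of the UMIs counted.

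Members were high together in the same cells, to a degree that differed by class and library. The 5% of cells highest for members at odd places in the list were compared with the rest for members at even places, which had no part in the choice. In C3-TAg the even-placed members were 2.87-fold higher in hormone-sensing cells (2.72 to 3.03), 5.60-fold in high-casein cells (5.17 to 6.06) and 7.90-fold in low-casein cells (7.52 to 8.30). In WT these values were 1.16-fold (1.08 to 1.25), 5.41-fold (5.02 to 5.83) and 3.18-fold (2.58 to 3.89). With odd and even places swapped they were 3.99, 4.62 and 11.4 in C3-TAg and 1.21, 4.38 and 4.49 in WT. The intervals treat UMIs as independent and do not cover UMIs clustered in few cells. Ifit1 and Rsad2 are even-placed, and in C3-TAg high-casein cells most of their UMIs lay in the highest cell for each. The 5.60-fold value can thus rest in part on very few cells, and its interval is too narrow. In C3-TAg, 16 of 16 even-placed members were at least 1.5-fold higher in the high hormone-sensing cells (15.6% of genes), 13 of 15 in the high high-casein cells (14% of genes) and 17 of 17 in the high low-casein cells (16.2% of genes). In WT the counts were 5 of 12 (11.7%), 12 of 14 (12.6%) and 6 of 8 (24%). Swapped, they were 15 of 16 (12.1%), 12 of 13 (14.8%) and 15 of 16 (17.3%) in C3-TAg, and 2 of 12 (9.88%), 10 of 13 (12.9%) and 7 of 8 (29.5%) in WT.

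Other properties of the high cells were measured beside these values. The odd-chosen high cells of C3-TAg hormone-sensing cells had a median of 7307.5 UMIs against 7986.5 in the rest and a median mitochondrial share of 5.74 against 5.67%. Their immune marker sum was 0 CPM, and 0.882 CPM in the rest, and their basal marker sum was 189.6 CPM against 112.6 CPM. Cells with 2 or more G2M UMIs made up 27.1% of them and 16.8% of the rest. In the low-casein class the same measures were 9357.5 and 8866 UMIs, 3.62 and 3.66% mitochondrial, 0 and 0.984 CPM of immune markers, 488.0 and 523.2 CPM of basal markers, and 79.3 and 76.9% of cells with 2 or more G2M UMIs. With even places choosing, the basal sum of the 23 high cells of the WT low-casein class was 1887 CPM against 151.7 CPM in the rest. In WT hormone-sensing cells it was 88.5 against 8.34 CPM. With odd places choosing, the WT basal sum was not higher in the high cells of either class. It was 60.9 against 247.4 CPM with low casein and 10.7 against 12.4 CPM in hormone-sensing cells. The part of depth, mitosis or other cells in the high sums was not tested.

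Genes outside the list that were highest in the top 5% of cells by member sum, were ranked by the smaller ratio of the casein classes. In C3-TAg these were Cxcl9, Cxcl10, Cmpk2, Apol9a, Ccl5, Igtp, Irgm2, Ddx60, Iigp1 and Lgals3bp, out of 6933 genes ranked over 2 classes. Cxcl10 was at 102.5 CPM in the high and 0.694 CPM in the other high-casein cells, and at 1273 and 25.03 CPM in low-casein cells. Cmpk2, a nucleotide kinase next to Rsad2 in the interferon response, was at 13.2 and 0.520 CPM, and at 28.0 and 0.562 CPM. In WT they included Apol9a, Cxcl10, Cd74, AW112010, Iigp1, Lgals9, Lifr, Sap130 and Irgm1, out of 5493 genes, with Apol9a at 17.5 and 0.922 CPM with high casein and 34.8 and 0.911 CPM with low casein. The high group of WT low-casein cells held 23 cells, and Lgals9, Sap130 and Irgm1 had 3, 2 and 2 UMIs in it. Their log2 intervals there held both signs (-0.66 to 3.54, -1.73 to 3.57 and -1.82 to 3.45), so their direction in that class is uncertain. Cxcl10, Apol9a and Iigp1 stood in both lists.

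Mitotic cells differed by class. Among C3-TAg hormone-sensing cells, the 17.3% with 2 or more G2M UMIs had a mean of 6.11 member UMIs per 5000 against 9.003 in the others, and 10 of 32 members passed 1.5-fold upward and 15 downward in them (31.3% and 21.7% of genes). Ifi27l2a was at 70.9 CPM in these mitotic cells and 1.01 CPM in the others, a log2 ratio of 6.13 (5.10 to 7.38), and Ifit1 at 23.0 and 3.67 CPM. Isg20 (27.9 and 94.2 CPM), Stat2 (6.06 and 35.1 CPM) and Ifitm3 (400.6 and 779.5 CPM) were lower in them. In this class the direction thus differed from member to member.

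Among high-casein cells 62.3% were mitotic by this count, with means of 2.85 and 2.32, and 9 of 28 members were higher and none lower (11.4% and 2.75% of genes). Ifit1 and Rsad2 are among the 9, and most of their UMIs in this class lay in the highest cell for each, so no direction is read from them. The mean of 2.85 includes these UMIs. Among low-casein cells 77.1% were mitotic, with means of 4.85 and 4.86, and 3 of 33 members were higher (Isg15, Oas3 and Dhx58) and none lower (11.4% and 5.6% of genes). The comparison of libraries without cells with 2 or more G2M UMIs left out a larger set than that counted at 5000 UMIs. It kept 603 of 2489 C3-TAg high-casein cells, where 916 of 2427 were not mitotic at 5000 UMIs. In it 23 of 30 members were higher and none lower in hormone-sensing cells (13.1% and 9.43% of genes). In low-casein cells 16 of 28 were higher and none lower (31% and 10.2% of genes). In high-casein cells 8 of 29 were higher and 8 lower (20.2% and 11.2% of genes), on those 603 C3-TAg cells, and the median log2 ratio was -0.21.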

How the data were processed

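Each library's matrix, as deposited, gives a whole-number UMI count for every gene in every barcode. Cell Ranger 3.1.0 and mm10 stand in the submitters' processing notes. Cells with at least 500 genes, 1000 UMIs and at most 10% mitochondrial UMIs were kept, doublets called by Scrublet in scanpy 1.11.5 (360 in WT, 544 in C3-TAg) were removed, and so were cells with 3 or more UMIs of 13 non-epithelial markers (35 and 20). The libraries shared 20 barcodes. Counts were summed per library and class and given as CPM with exact Poisson intervals. Ratios have exact conditional intervals and shares have Clopper-Pearson intervals (scipy 1.17.1), all at 95%. A member was measured with 20 or more UMIs over both libraries. Where WT had 0 UMIs, its floor was 3 counts. Members with 10 CPM or more in any of the 6 groups are named with their values, others by range or by example. Per-cell values used cells thinned without replacement to 5000 UMIs. Ratios were tested on simulated Poisson counts of 12747, 12899 and 12681 genes, of which 100 per class were changed 1.5-fold. The direction was right for 99, 98 and 94% of those 100, and the interval held the true value for 94, 91 and 97%. Group sums were simulated and not cells, so UMIs clustered in few cells were not covered. The members and lists were chosen with earlier results of these data known. Alternatives were tried for scaling, filters, doublets, class thresholds, thinning depth and the share of cells left out. A result on 1 gene of the pathway is not reported here.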

Additional observations from a re-analysis of the deposited data

Results flagged for a closer look

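Zbp1 had opposite directions in 2 classes, with a log2 ratio of C3-TAg over WT of 0.60 in hormone-sensing cells and -0.86 in high-casein cells. With 1 library per genotype the difference between the classes was not tested, and among cells with at most 5% mitochondrial UMIs the hormone-sensing value was -0.19.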

How the results depend on the processing

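No paired analysis was possible because each genotype had 1 library, and for that reason no library could be left out. Of the calls at 1.5-fold, 17 of 24 in hormone-sensing, 14 of 17 in high-casein and 18 of 22 in low-casein cells were kept. A call was lost if the member was still measured in an alternative run and no longer passed 1.5-fold there. Runs in which a member had too few UMIs to be measured did not count against its call. The median log2 ratio of high-casein cells was 0.12 with TMM scaling and -0.21 without cells with 2 or more G2M UMIs, a setting chosen after seeing the data, in which Ifit2 was at -0.38 and Oasl2 at -0.36. The members higher there numbered 8 with 100 UMIs required and 8 without those cells. Zbp1 in hormone-sensing cells was at -0.19 with at most 5% mitochondrial UMIs. The share of C3-TAg member UMIs in the top 10% of cells was 30.8, 44.8 and 50.6% at 2000 UMIs, and 36.5, 48.1 and 52.5% without the 3 highest members (hormone-sensing, high-casein and low-casein cells in turn). The log2 ratio of even-placed members in cells high for odd-placed ones was 1.995, 2.21 and 3.52 with places swapped, 1.28, 1.86 and 2.44 with the top 10% as high, and 2.15, 2.68 and 3.40 without Ifitm3, a setting also chosen after seeing the data. At 2000 UMIs it was 1.41 in hormone-sensing and 2.35 in high-casein cells. The log2 ratio of summed members in hormone-sensing cells was 0.22 with no cells left out, 0.090 without the top 5% and 0.16 without the top 1%, and in low-casein cells 0.78 with no cells left out and 0.71 without the top 1%. With the top 10% of cells and the 3 highest members left out together it was 0.44, 0.24 and 0.37 in the 3 classes. The cause of these shifts was not tested. The WT low-casein class had 552 cells, which limits the precision of its values.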
